A study of Mus musculus with 12 samples.

Results

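The heat shock responses of a striatal cell line with wild-type huntingtin and of a line with mutant huntingtin were compared gene by gene. STHdhQ7/Q7 cells (Q7 cells) came from the striatum of embryonic wild-type mice, and STHdhQ111/Q111 cells (Q111 cells) from embryonic mice with a knock-in allele of an expanded polyglutamine tract, the mutation of Huntington's disease. Each line was kept at 33 °C or was exposed to 42 °C for 6 h, and total RNA of 3 samples of each of these 4 groups was hybridised to Affymetrix mouse arrays, 12 arrays in all. The cells of all groups grew in medium with serum and G418, an antibiotic used to select cells with a resistance gene. Genotype is represented by 1 line for each allele, so a difference between the lines is a difference between these cell populations. The labels do not say that replicates were separate cultures, so the p-values reflect spread among the arrays alone, and that spread may be technical.

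The response of a line is its mean log2 level after heat shock minus its mean log2 level at 33 °C. The quantity described here is the response of Q111 cells minus the response of Q7 cells, called the difference of responses. A positive value means that the level rose more, or fell less, in Q111 cells, and a value of 1 is a 2-fold change relative to Q7 cells. It was tested for 18193 genes, each represented by its brightest probe set, with limma and Benjamini-Hochberg adjustment over all genes. Values called have an adjusted p under 0.05. The genes described are the 11493 that were above background in both lines, out of 18193. A gene was above background in a line when all 3 arrays of at least 1 of its 2 groups exceeded 5.14, the highest value of 27 bacterial probe sets whose RNA was not added. The 6700 other genes fell short of this in 1 or both lines and are not described as a group, although 185 of them were called. In bulk RNA, fewer cells of a type and less RNA per cell cannot be told apart.

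At raised temperature, unfolded proteins draw chaperones away from the heat shock transcription factors, which then bind heat shock elements and switch on genes of chaperones. Heat also halts much of splicing, translation and ordinary transcription, so that many short-lived transcripts decline. Polyglutamine-expanded huntingtin misfolds and aggregates, and the chaperone network is known for holding such proteins soluble. The design crosses line with temperature, so it asks whether the response to heat depends on the line.

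Heat shock elements are inverted repeats of the unit GAA or TTC, spaced by any 2 bases. Promoters were searched for 3 successive units (TTCNNGAANNTTC or GAANNTTCNNGAA) and for 2 (TTCNNGAA or GAANNTTC), both strands being covered because each form is searched with its reverse complement, and each match of 3 contains matches of 2. The sequences below are the 250 bases upstream of the annotated start, 5′ to 3′ on the gene's strand, from the RefSeq promoter table of build GRCm38.p6, with matches of 2 units in capitals. Shown are the chaperone genes Hspa1a (chr17:34972157-34972406, minus strand), Hspb1 (chr5:135887669-135887918, plus strand) and Hsph1 (chr5:149636316-149636565, minus strand). These 3 held a match and rose in both lines with a difference of responses that did not pass. Not every such chaperone gene held one. The promoters of Dnajb1 had no match, and the only match of Bag3 lay after the start, at 42. Pde1a (chr2:80129413-80129662, minus strand), Saa3 (chr7:46715677-46715926, minus strand) and Tap1 (chr17:34187306-34187555, plus strand) are shown because they held a match and their difference of responses passed.
Hspa1a: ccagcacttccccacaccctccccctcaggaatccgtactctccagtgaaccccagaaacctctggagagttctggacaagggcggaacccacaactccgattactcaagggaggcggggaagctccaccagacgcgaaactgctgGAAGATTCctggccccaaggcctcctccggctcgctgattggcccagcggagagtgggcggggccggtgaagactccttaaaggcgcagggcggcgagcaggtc
Hspb1: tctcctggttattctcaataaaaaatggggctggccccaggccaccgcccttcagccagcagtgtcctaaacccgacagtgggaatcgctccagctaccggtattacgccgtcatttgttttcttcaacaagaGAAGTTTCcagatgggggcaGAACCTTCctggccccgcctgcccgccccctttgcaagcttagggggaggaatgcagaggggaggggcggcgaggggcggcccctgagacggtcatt
Hsph1: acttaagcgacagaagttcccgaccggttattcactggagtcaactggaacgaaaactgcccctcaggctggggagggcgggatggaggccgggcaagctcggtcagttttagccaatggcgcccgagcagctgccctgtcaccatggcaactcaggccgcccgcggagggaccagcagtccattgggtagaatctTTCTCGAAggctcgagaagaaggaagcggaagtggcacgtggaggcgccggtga
Pde1a: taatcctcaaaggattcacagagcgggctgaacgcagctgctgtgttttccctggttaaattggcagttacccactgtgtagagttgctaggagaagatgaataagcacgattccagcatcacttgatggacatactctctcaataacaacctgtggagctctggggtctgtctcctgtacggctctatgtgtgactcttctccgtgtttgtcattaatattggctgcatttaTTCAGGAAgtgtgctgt
Saa3: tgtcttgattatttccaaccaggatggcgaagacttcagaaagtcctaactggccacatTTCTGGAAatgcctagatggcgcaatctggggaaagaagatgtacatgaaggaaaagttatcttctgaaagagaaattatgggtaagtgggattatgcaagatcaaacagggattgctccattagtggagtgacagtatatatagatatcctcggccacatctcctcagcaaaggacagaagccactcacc
Tap1: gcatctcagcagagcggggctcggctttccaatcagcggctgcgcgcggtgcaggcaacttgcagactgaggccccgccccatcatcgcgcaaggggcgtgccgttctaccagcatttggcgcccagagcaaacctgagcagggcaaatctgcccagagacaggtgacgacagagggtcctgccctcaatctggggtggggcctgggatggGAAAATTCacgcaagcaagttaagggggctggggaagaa
The Hspa1a match begins at base -104, the Hspb1 matches at -117 and -97, and the Hsph1 match at -54, counted from the annotated start. Those of Pde1a, Saa3 and Tap1 begin at -17, -191 and -39. Over windows of 300 bases, from 250 before the start to 50 after it, 2 units occurred in 15.1% of the 32851 promoters in the table and the 3-unit form in 0.603%. Counted by gene, with a gene holding a form if any of its promoters did, 2 units occurred in 13.6% of the 9297 genes above background in both lines that had a promoter in the table, in 12.2% of the 98 with a higher response in Q111 cells, in 11.9% of the 579 with a lower one, and in 16.3% of the 1034 that rose in both lines with a difference that did not pass. The 3-unit form was in 0.538% of those 9297 genes, in 0 of the 98, in 0.345% of the 579 and in 0.967% of the 1034. The 2 genes with a lower response and this form were Map2k4 and 2310022A10Rik. Such matches describe letters in these windows and show no binding.

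Of the 11493 genes above background in both lines, 856 differed in their response between the lines, or 7.45%. The response was lower in Q111 cells for 723 genes (6.29%) and higher for 133 (1.16%). In each line on its own, heat shock raised 1934 genes in Q7 cells (16.8%) and 2069 in Q111 cells (18%), and lowered 2950 in Q7 cells (25.7%) and 4720 in Q111 cells (41.1%). Over all 18193 genes tested the count was 1041 (5.72%). The median difference of responses was -0.16 over genes above background in both lines, and 62.5% of them had a negative value. Of the 856 genes, 683 were above background in all 4 groups, and the other 173 had at least 1 group with an array in background range, where a level is only an upper limit. For those genes the difference is given as measured and is not a bound.

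**Figure D1:**
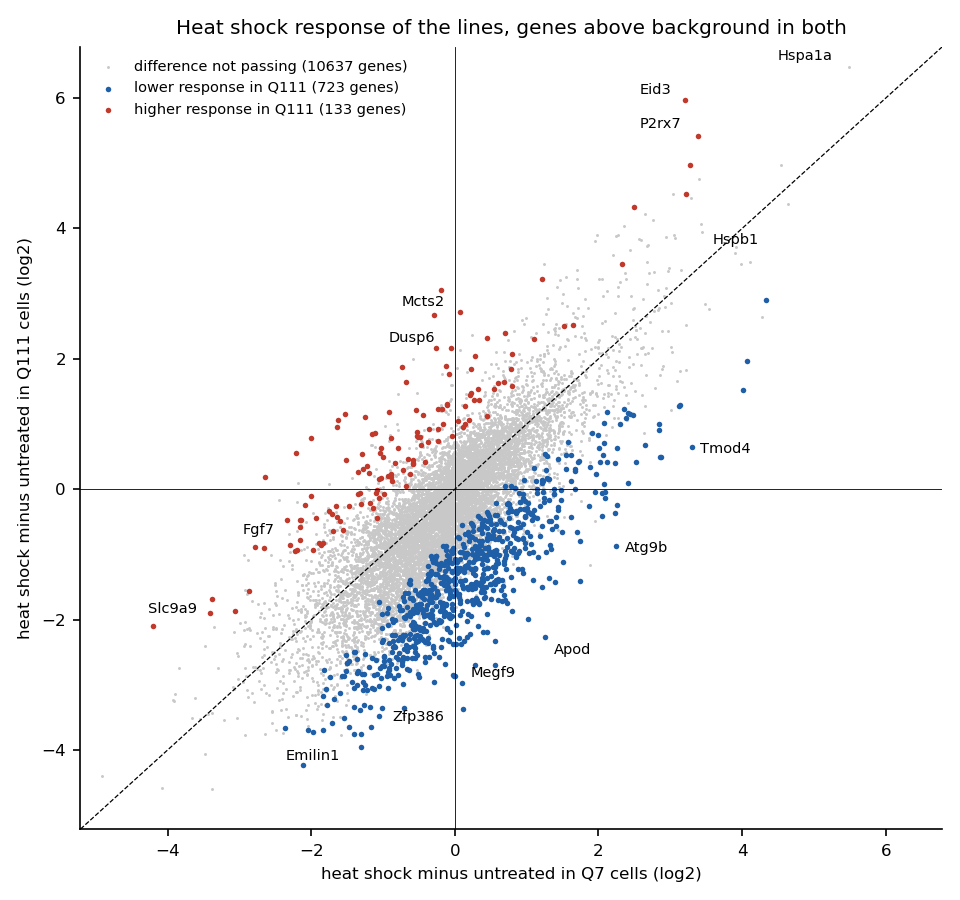
Response to heat shock (log2, heat shock minus untreated) of Q111 cells on the vertical axis against that of Q7 cells on the horizontal axis, 1 point per gene above background in both lines, with equal responses on the dashed line. The 723 genes with a lower response in Q111 cells lie below the line (blue) and the 133 with a higher response above it (red), while the chaperone genes Hspa1a and Hspb1 lie among the genes that did not pass (grey).

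The split between directions depended on how arrays were scaled. Subtracting from each array its own median gene level (median centring) raised the median difference of responses over genes above background from -0.16 to 0.21. Over all 18193 genes that median was -0.007 as deposited and 0.37 with median centring. Median centring gave 522 genes with a higher and 404 with a lower response, so that 43.6% were lower in place of 84.5%. Centring on ribosomal protein genes gave 106 higher and 988 lower (90.3% lower), and a further quantile normalization gave 177 and 483 (73.2% lower). Under all 4 scalings together 418 genes were called in the same direction, 91 higher and 327 lower. The total also depended on single arrays: 279 genes were called without replicate 3 and 370 without replicate 1 of heat-shocked Q7 cells, and 407 to 539 without replicate 2 or 3 of untreated Q7 cells or any 1 untreated Q111 array. Without each of the 12 arrays in turn, 272 genes were always called in the same direction, and 236 genes met both conditions, 46 higher and 190 lower.

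Arrays also differed beyond their groups. The heat-shocked Q111 array of replicate 3 had the narrowest spread of levels, with an interquartile range of 4.70 against 5.07 to 5.64 on the others, and it was the lowest of its group for 521 of the 723 genes with a lower response. For all genes above background it was the lowest for 7469 of 11493. Without it, 927 genes were called, 250 higher and 677 lower. The level of the actin control at its 3′ end minus that at its 5′ end, a measure of RNA integrity, was 0.38 to 0.69 in untreated and 1.35 to 1.60 in heat-shocked Q7 cells, and 0.49 to 1.14 in untreated and 0.99 to 1.39 in heat-shocked Q111 cells. With that value of each array as a covariate, 311 genes were called, 44 higher and 267 lower, and 305 of them were among the 856. Of the marker genes for other cell types, Gfap, Aqp4 and S100b of astrocytes, Olig1, Olig2 and Mbp of oligodendrocytes, Aif1 and Ptprc of microglia, and Pecam1 and Cdh5 of endothelium were in background range in all groups. Striatal neuron markers Ppp1r1b, Drd2 and Pdyn and the neuron markers Snap25, Nefl, Nefm and Dcx were in background range too, while 8 of 11 fibroblast markers and 7 of 13 neural progenitor markers were above background in both lines. Of the measured markers of each list, those above background in both lines were 5 of 8 for astrocytes, 3 of 9 for oligodendrocytes, 1 of 10 for microglia, 1 of 8 for endothelium, 5 of 12 for neurons and 3 of 10 for striatal neurons.

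**Figure D2:**
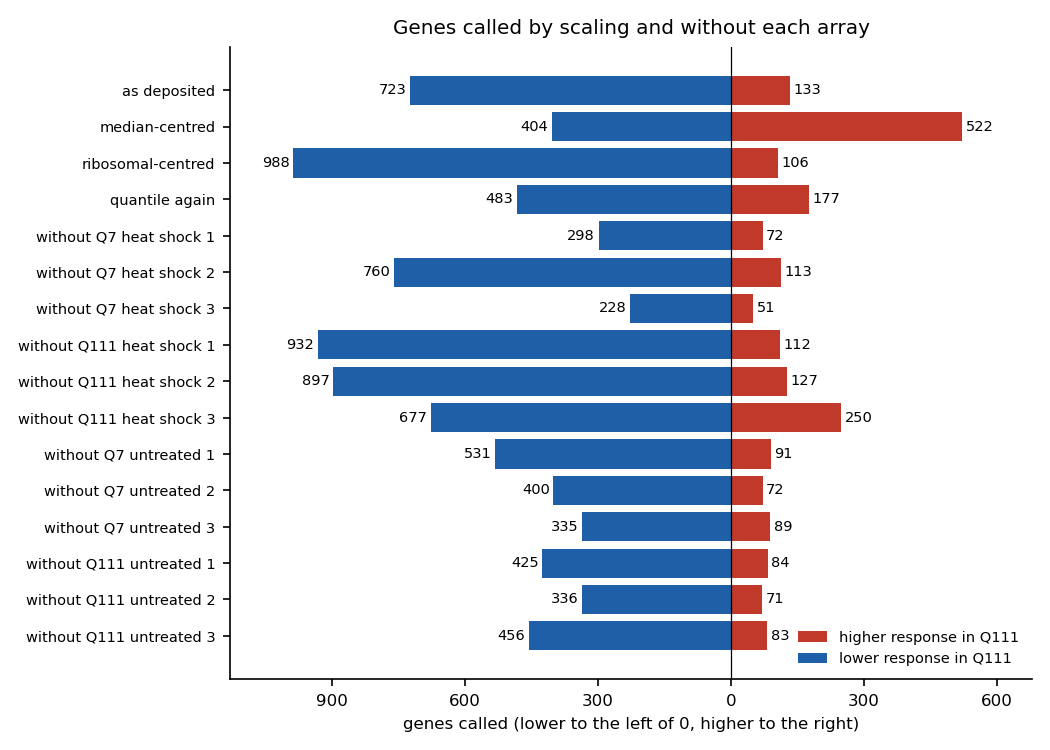
Number of genes called with a higher response in Q111 cells (right of 0) and with a lower response (left of 0), under 4 scalings of the arrays and without each array in turn. Median centring turns the majority, from 723 lower and 133 higher to 404 lower and 522 higher, and leaving out the Q7 heat shock array of replicate 3 leaves 228 and 51.

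Calls in each line sort the 856 genes into 10 kinds. The commonest, with 400 genes, fell in Q111 cells while the response of Q7 cells did not pass, with a median response of -1.51 in Q111 cells and 0.00 in Q7 cells. A further 124 genes fell in both lines and more in Q111 cells, 98 rose in Q7 cells with no passing change in Q111 cells, 71 rose in Q7 cells and fell in Q111 cells, and 30 rose in both and more in Q7 cells. Among genes with a higher response in Q111 cells, 45 fell in Q7 cells with no passing change in Q111 cells, 36 rose in Q111 cells with no passing change in Q7 cells, 20 fell in both and more in Q7 cells, 18 rose in both and more in Q111 cells, and 14 fell in Q7 cells and rose in Q111 cells. A passing change in only 1 line does not itself show a difference, but each gene counted here passed the test of the difference.

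**Figure D3:**
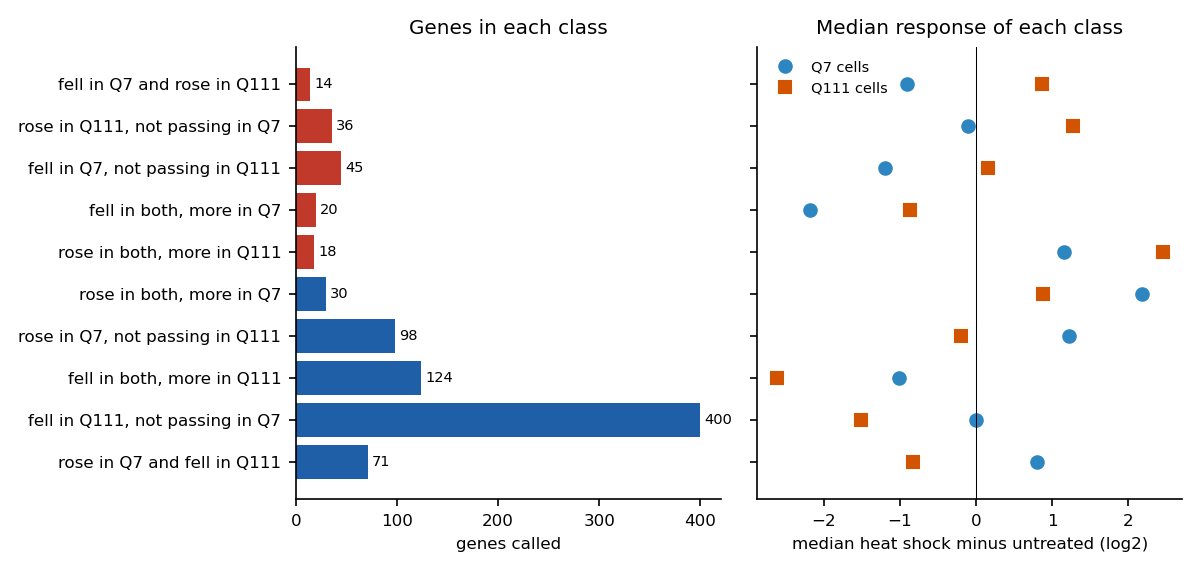
Number of genes of each kind (left) and the median response in each line in log2 units (right), for the 856 genes whose difference of responses passed. Genes that fell in Q111 cells and did not pass in Q7 cells make up 400, and blue bars are kinds with a lower response in Q111 cells.

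The gap between the lines was wider after heat shock for most genes with a lower response in Q111 cells. That gap equals the gap at 33 °C plus the difference of responses, on which the called genes were chosen. The counts of wider and narrower gaps among called genes depend on that choice and are no separate result. Of these 723 genes, 599 had a larger absolute gap after heat shock and 124 a smaller one. The median of the signed gap, Q111 minus Q7, moved from 0.18 at 33 °C to -1.23 after heat shock. Of the 133 genes with a higher response, 74 had a smaller gap after heat shock and 59 a larger one, and the median gap moved from -0.88 to 0.48. Over all genes above background, 7385 had a larger and 4108 a smaller gap. Lower responses were most frequent at intermediate levels, with 10.8% of the 3247 genes whose mean level was 7 to 9, against 5.40% of the 3758 genes at 9 to 11 and 1.25% of the 2162 above 11.

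Genes of the chaperone system are the best known targets of heat shock. Across 4 lists of cytosolic chaperones and their partners, 45 genes were above background in both lines. Of these, 22 rose with heat shock in each line, 6 fell in Q7 cells and 11 in Q111 cells. The difference of responses was lower in Q111 cells for 3 of them (6.67%, against 6.29% of all genes above background), higher for 0 at an adjusted p under 0.05 in limma, and within 0.5 of 0 for 36. The median difference was 0.06, against -0.16 for all genes above background. That median was -0.03 with ribosomal centring and 0.43 with median centring, under which 6 were higher and 2 lower. At an unadjusted p under 0.05, 4 were higher and 4 lower, while 3043 of all 11493 genes above background passed in either direction. With the actin covariate, or without replicate 3 of heat-shocked Q7 cells, 0 were called in either direction. Averaging the probe sets of each gene gave 2 higher and 2 lower. Weighting the arrays gave 7 higher and 4 lower, though that fit did not reach its tolerance.

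Hspa1a encodes the main inducible Hsp70, which binds unfolded protein. Its levels were 6.07, 6.26 and 5.55 in untreated Q7 cells, 11.42, 11.42 and 11.49 in heat-shocked Q7 cells, 5.87, 6.31 and 5.68 in untreated Q111 cells and 12.51, 12.14 and 12.65 in heat-shocked Q111 cells. All heat-shocked arrays lay above all untreated ones, and the 3 heat-shocked Q111 arrays were above the 3 heat-shocked Q7 arrays, while the untreated lines overlapped. The difference of responses was 1.0 (SE 0.31, adjusted p = 0.0863), with a 95% interval of 0.32 to 1.68, and it did not pass as deposited but did with median centring. Hspa1b is a near-identical copy of Hspa1a, so separate signals are uncertain, and its difference was 0.15 (SE 0.18, adjusted p = 0.681).

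Hspb1 encodes a small heat shock protein that holds unfolded proteins until they are refolded. Its levels were 10.17, 10.33 and 10.35 in untreated Q7 cells, 13.76, 13.72 and 13.70 in heat-shocked Q7 cells, 9.62, 10.00 and 9.44 in untreated Q111 cells and 13.72, 13.65 and 13.54 in heat-shocked Q111 cells. The heat-shocked arrays of both lines shared a range of 13.54 to 13.76, near the top of the scale, and the untreated Q111 arrays were below the untreated Q7 arrays. Its difference was 0.51 (SE 0.21, adjusted p = 0.197), with a 95% interval of 0.04 to 0.98, and it passed with median centring only. Bag3, a co-chaperone that links Hsp70 to small heat shock proteins and to autophagy, rose by 1.01 in Q7 cells and 1.60 in Q111 cells, and its difference of 0.59 did not pass (95% interval -0.07 to 1.25). Narrower intervals were measured for Hsph1, the nucleotide exchange factor of Hsp70 (0.11, interval -0.33 to 0.54), for the J-domain protein Dnajb1 (0.08, interval -0.31 to 0.48) and for the inducible Hsp90 gene Hsp90aa1 (0.12, interval -0.28 to 0.51). The Hsph1 probe set used was near the top of the scale, and another above background rose by 2.89 in Q7 cells and 3.48 in Q111 cells, a difference of 0.59 that did not pass.

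The 3 genes of these lists that passed all had a lower response in Q111 cells. Dnajb2 encodes a J-domain protein that delivers ubiquitinated clients for degradation. Its levels were 9.50, 9.64 and 9.74 in untreated Q7 cells, 11.03, 10.97 and 11.03 in heat-shocked Q7 cells, 9.34, 9.61 and 9.42 in untreated Q111 cells and 9.69, 9.72 and 8.98 in heat-shocked Q111 cells. The heat-shocked Q7 arrays stood above all others, and the groups of Q111 cells overlapped. Its difference was -1.38 (SE 0.27, adjusted p = 0.0157). Ahsa2, a gene related to an activator of Hsp90, responded by 1.28 in Q7 cells and 0.50 in Q111 cells, a rise in both lines, with a difference of -0.77 (SE 0.17, adjusted p = 0.0232) that passed under 3 of the 4 scalings. Dnajb5, another J-domain gene, fell in both lines on its brightest probe set, with a difference of -2.33 (SE 0.47, adjusted p = 0.0183), but another probe set above background gave 0.00. The huntingtin gene itself fell in both lines, by 1.01 in Q7 cells and 0.87 in Q111 cells, and its difference of 0.14 did not pass (interval -0.37 to 0.65). Those values come from its brightest probe set, and a dimmer one above background gave 0.27 and 1.44, a difference of 1.17 that did not pass. Hsf2, a heat shock factor, was not above background in both lines.

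Outside the chaperone lists, 14 lists had 0 genes called in either direction in limma, against 7.45% of all genes above background. They covered TRiC and prefoldin (14 genes above background), mitochondrial chaperones and proteases (14), proteasome (31), ATF4 and amino acid response (26), S phase (32), mitosis (30), p53 and its targets (25), ribosomal proteins (20), ribosome biogenesis (30), oxidative phosphorylation (49), histones (9), metallothioneins and zinc response (6), BDNF and REST targets (9) and heat shock factors (1). For the shortest of these lists, 0 called genes is close to that share. The median differences of the lists lay between -0.31 for p53 targets and 0.40 for metallothioneins. The p53 median became 0.06 with median centring, which also called 12 genes of these lists higher, 8 of them for ribosome biogenesis. At an unadjusted p under 0.05, 15 of their 295 genes were higher and 12 lower. Of all 11493 genes above background, 3043 passed at that level in either direction. Of the 25 p53 genes 0 were higher and 6 lower, and of the 30 for ribosome biogenesis 5 were higher and 0 lower. Across all 41 lists, 784 genes were above background in both lines. Of these, 18 had a higher response in Q111 cells (2.30%) and 37 a lower one (4.72%), against 1.16% and 6.29% of all genes above background.

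**Figure D4:**
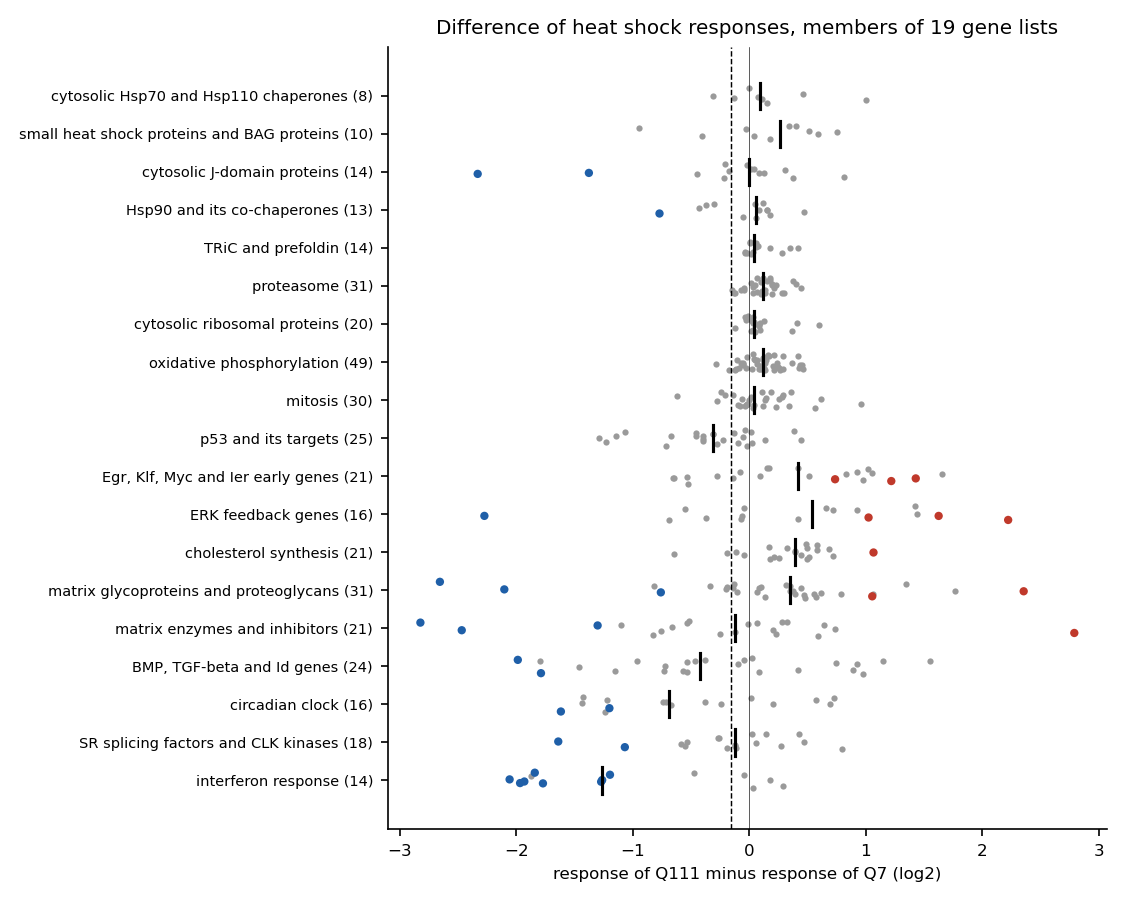
Difference of responses (log2, Q111 minus Q7) of each member above background in both lines, for 19 gene lists with their number of members in brackets. Black bars are list medians, the dashed line is the median of all genes above background (-0.16), and coloured points passed the test, with 8 of 14 interferon response genes to the left.

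Interferon-response genes, which act against viruses, included many with a lower response in Q111 cells. Of 29 measured, 14 were above background in both lines, and 8 of these had a lower response in Q111 cells, with 0 higher in limma, and 9 lower and 0 higher at an unadjusted p under 0.05. The share of all genes above background with a lower response was 6.29% at an adjusted p under 0.05. At an unadjusted p under 0.05, 3043 of those 11493 genes passed in either direction. The median difference was -1.27 as deposited, and -0.89, -1.36 and -1.13 under median centring, ribosomal centring and further quantile normalization, where 5, 9 and 7 genes were called. Without any array in turn, 5 to 9 were called, the fewest without replicate 1 or replicate 3 of heat-shocked Q7 cells. The other 15, such as Ifit1, were in background range in at least 1 line and are not counted.

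Parp14, a poly-ADP-ribose polymerase family member induced by interferon, showed the pattern on every array. Its levels were 6.09, 6.37 and 6.11 in untreated Q7 cells, 5.18, 4.97 and 5.26 in heat-shocked Q7 cells, 8.41, 9.01 and 8.84 in untreated Q111 cells and 5.58, 6.14 and 5.48 in heat-shocked Q111 cells. Untreated Q111 cells stood above all other groups, and the heat-shocked Q7 arrays were at the edge of background range. The gene fell in both lines, and its difference was -1.97 (SE 0.29, adjusted p = 0.00507). Dhx58, a helicase that senses viral RNA, had levels of 5.23, 5.73 and 5.37 in untreated Q7 cells, 4.64, 4.44 and 4.72 in heat-shocked Q7 cells, 7.22, 7.87 and 7.77 in untreated Q111 cells and 4.89, 5.00 and 4.26 in heat-shocked Q111 cells. Heat-shocked arrays of both lines were all in background range, so each fall is only a lower limit, and the measured difference was -2.06 (SE 0.33, adjusted p = 0.00717). Stat2 and Irf9 encode subunits of the factor that switches on interferon-stimulated genes. Stat2 responded by 0.43 in Q7 cells and -1.50 in Q111 cells, with a difference of -1.93 (SE 0.34, adjusted p = 0.0101), though another of its probe sets gave 0.01. The difference was -1.77 (SE 0.28, adjusted p = 0.00672) for Irf9, which rose in Q7 cells and fell in Q111 cells, -1.84 (SE 0.35) for Ifit3, -1.27 (SE 0.28) for the viral RNA sensor Ddx58, -1.26 (SE 0.26) for Ifit2 and -1.20 (SE 0.26) for Ifi35. The other 6 members above background did not pass, among them Xaf1 at -1.87 (SE 0.52), and Ifitm3 and Eif2ak2 at -0.05 and 0.03.

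Genes of MHC class I presentation, which interferon also raises, passed in 2 of 15 members, against 7.45% of all genes above background. Nlrc5, the transactivator of class I genes, had levels of 7.74, 7.61 and 7.10 in untreated Q7 cells, 8.03, 7.58 and 8.04 in heat-shocked Q7 cells, 9.83, 9.25 and 9.12 in untreated Q111 cells and 7.76, 7.99 and 7.71 in heat-shocked Q111 cells. The untreated Q111 arrays were the highest, and the other groups overlapped. It fell in Q111 cells, did not pass in Q7 cells, and had a difference of -1.98 (SE 0.32, adjusted p = 0.00757). Tap1, the peptide transporter whose promoter is printed above, rose by 1.10 in Q7 cells and fell in Q111 cells (-1.38) on its brightest probe set. The difference was -2.48 (SE 0.45, adjusted p = 0.0113), while another probe set above background gave -0.14, so the gene's value is uncertain. The list's median was -0.01, and 0.37 with median centring. Trafd1, a regulator of innate immune signalling on the list of huntingtin and its partners and targets, rose in Q7 cells and had a difference of -1.29 (SE 0.22, adjusted p = 0.00967). On the same list Sp1, a transcription factor, had a difference of -1.48 (SE 0.28, adjusted p = 0.0145), with -0.26 and -0.77 on 2 other probe sets.

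Feedback regulators of the ERK kinase pathway included genes that were low in untreated Q111 cells and rose there with heat. Dusp6, the phosphatase that inactivates ERK in the cytoplasm, had levels of 10.45, 10.20 and 10.17 in untreated Q7 cells, 10.14, 10.27 and 10.24 in heat-shocked Q7 cells, 8.97, 8.72 and 8.51 in untreated Q111 cells and 10.88, 10.84 and 10.97 in heat-shocked Q111 cells. The 3 untreated Q111 arrays were the lowest, and the heat-shocked Q111 arrays were the highest. The response was 2.16 in Q111 cells and -0.06, not passing, in Q7 cells, and the difference was 2.22 (SE 0.20, adjusted p = 0.00137). Phlda1, an early gene downstream of ERK, had levels of 11.42, 11.32 and 11.16 in untreated Q7 cells, 11.42, 11.57 and 11.57 in heat-shocked Q7 cells, 9.73, 9.82 and 9.95 in untreated Q111 cells and 11.76, 11.49 and 11.78 in heat-shocked Q111 cells. Its untreated Q111 arrays were lowest and the 3 other groups were close together, with a difference of 1.62 (SE 0.19, adjusted p = 0.00209). Dusp2, a nuclear phosphatase of ERK, passed at 1.02 (SE 0.22, adjusted p = 0.0248). Spred2, an inhibitor of the step from Ras to Raf, went the other way with -2.27 (SE 0.39, adjusted p = 0.0094), though its other probe set above background did not pass at -0.85. The list's median over 16 genes above background was 0.54, with 0.44 to 0.91 over the scalings. Of these genes 3 were higher and 1 lower, against 1.16% higher and 6.29% lower of all genes above background. With all 4 groups required to be above background, 3 of 15 were higher and 0 lower.

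Early transcription factor genes moved in the same direction where they passed with all 12 arrays in the fit. Of 21 genes of the Egr, Klf, Myc and Ier list 3 were higher and 0 lower in limma (6 and 0 at an unadjusted p under 0.05), with a median of 0.42. Over all genes above background, 1.16% were higher and 6.29% lower at an adjusted p under 0.05. At an unadjusted p under 0.05, 3043 of those 11493 genes passed in either direction. Without replicate 3 of heat-shocked Q7 cells 0 were called. Without replicate 1 of heat-shocked Q111 cells 1 was higher and 1 lower. Myc, a growth-promoting factor, had levels of 10.58, 10.65 and 10.54 in untreated Q7 cells, 9.80, 9.81 and 9.79 in heat-shocked Q7 cells, 9.83, 9.19 and 9.57 in untreated Q111 cells and 10.57, 9.86 and 10.07 in heat-shocked Q111 cells. It fell in Q7 cells by 0.79 and rose in Q111 cells by 0.64, and its difference was 1.43 (SE 0.28, adjusted p = 0.0162). Klf4 rose in Q111 cells and had a difference of 1.22 (SE 0.30, adjusted p = 0.0398), while another probe set gave 0.97, and the call held in 3 of 12 fits without an array. Ier3, a gene that protects from apoptosis, fell in Q7 cells and had a difference of 0.74 (SE 0.19, adjusted p = 0.0464), which passed under 2 of the 4 scalings. Maff, a small Maf partner of stress factors, had levels of 8.78, 9.31 and 9.0 in untreated Q7 cells, 9.77, 9.52 and 9.88 in heat-shocked Q7 cells, 8.43, 8.94 and 8.96 in untreated Q111 cells and 11.26, 11.37 and 10.91 in heat-shocked Q111 cells. It rose in both lines with the heat-shocked Q111 arrays above all others, and its difference of 1.71 (SE 0.28, adjusted p = 0.00849) was the only 1 of 12 AP-1 and stress early genes to pass. The median of those 12 genes was -0.10. At an unadjusted p under 0.05, 5 of them were higher and 0 lower, and median centring called 4 higher and 0 lower. Fos of that list (-0.25, SE 0.28) and Egr1 of the Egr, Klf, Myc and Ier list (0.15, SE 0.25) did not pass.

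Extracellular matrix lists held called genes in both directions, beside shares of 1.16% higher and 6.29% lower over all genes above background. Of 31 matrix glycoproteins and proteoglycans 2 were higher and 3 lower, of 21 matrix enzymes and inhibitors 1 was higher and 3 lower, and of 19 collagens 1 was lower. Median centring gave 5 and 2, 4 and 3, and 1 and 1. Over the 11 fibroblast markers the array means were 9.09 to 9.20 in untreated and 8.85 to 8.90 in heat-shocked Q7 cells, and 10.08 to 10.15 in untreated and 9.52 to 9.77 in heat-shocked Q111 cells, and their part in these results was not tested. Dcn encodes decorin, a small proteoglycan that binds collagen. Its levels were 7.99, 8.37 and 8.02 in untreated Q7 cells, 6.80, 7.04 and 6.79 in heat-shocked Q7 cells, 9.30, 8.31 and 9.02 in untreated Q111 cells and 9.84, 10.16 and 9.94 in heat-shocked Q111 cells. Heat-shocked Q7 arrays were the lowest and heat-shocked Q111 arrays the highest, without overlap with any other group. Dcn fell in Q7 cells and rose in Q111 cells, with a difference of 2.35 (SE 0.32, adjusted p = 0.00357), while another probe set gave 1.05 and did not pass. Emilin1, a glycoprotein of elastic fibres, fell in both lines, by 1.31 and 3.96, with a difference of -2.66 (SE 0.57, adjusted p = 0.0238) that held in 6 of 12 fits without an array. Acan, the large proteoglycan of cartilage, fell in Q111 cells and had a difference of -2.10 (SE 0.37, adjusted p = 0.00991). Its level in Q7 cells was near background in both groups. Col1a2, a chain of type I collagen, rose in Q7 cells by 0.83 and fell in Q111 cells (-0.91), a difference of -1.73 (SE 0.30, adjusted p = 0.00961). Its other probe set gave -0.03 in Q7 cells and -1.35 in Q111 cells, a difference of -1.32, so the rise in Q7 cells rests on the brightest probe set.

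Proteases of the matrix were among the largest differences. Mmp3, stromelysin 1, had levels of 8.17, 9.38 and 7.85 in untreated Q7 cells, 6.24, 6.43 and 6.70 in heat-shocked Q7 cells, 5.33, 5.41 and 5.60 in untreated Q111 cells and 6.17, 5.59 and 6.91 in heat-shocked Q111 cells. It was high only on the untreated Q7 arrays, fell there with heat by 2.01, and did not pass in Q111 cells, with a difference of 2.79 (SE 0.54, adjusted p = 0.0158). Mmp11 had levels of 9.14, 9.19 and 9.67 in untreated Q7 cells, 9.37, 9.09 and 9.48 in heat-shocked Q7 cells, 9.32, 9.53 and 9.68 in untreated Q111 cells and 6.91, 7.28 and 5.79 in heat-shocked Q111 cells. The heat-shocked Q111 arrays were below all others, which overlapped, and the difference was -2.82 (SE 0.45, adjusted p = 0.00686). Adamts4, an enzyme that cuts aggrecan, fell in both lines, by 1.17 and 3.64, with a difference of -2.47 (SE 0.46, adjusted p = 0.0136). The collagen prolyl hydroxylase gene P4ha2 passed as well at -1.30 (SE 0.21, adjusted p = 0.00696). Mmp23 rose in both lines, more in Q7 cells, with a difference of -1.98 (SE 0.31, adjusted p = 0.0068). Tm6sf2, Psors1c2 and Igll1 did the same, with -1.94, -1.85 and -1.62.

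On the lists of BMP and TGF-beta genes and of clock genes, 2 of 24 and 2 of 16 had a lower response in Q111 cells, against 6.29% of all genes above background. Smad3, the signalling protein downstream of TGF-beta receptors, had levels of 11.44, 11.31 and 10.98 in untreated Q7 cells, 10.89, 10.89 and 10.83 in heat-shocked Q7 cells, 11.51, 11.67 and 11.42 in untreated Q111 cells and 9.34, 9.01 and 9.15 in heat-shocked Q111 cells. The heat-shocked Q111 arrays lay below every other array, and the difference was -1.99 (SE 0.21, adjusted p = 0.00184). Tgfb3, a ligand of the pathway, fell in Q111 cells and had a difference of -1.79 (SE 0.42, adjusted p = 0.0308). The list's median was -0.42 over 24 genes, and -0.05 with median centring. Nr1d1, the repressor REV-ERB alpha of the circadian clock, had levels of 8.36, 8.98 and 8.59 in untreated Q7 cells, 9.39, 9.31 and 9.41 in heat-shocked Q7 cells, 7.95, 8.24 and 8.12 in untreated Q111 cells and 7.54, 7.09 and 7.01 in heat-shocked Q111 cells. It rose in Q7 cells, fell in Q111 cells, and had a difference of -1.62 (SE 0.26, adjusted p = 0.00767). Tef, a clock-driven factor, did likewise, with -1.20 (SE 0.19, adjusted p = 0.00659), and passed under 3 of 4 scalings. The median of 16 clock genes was -0.69, with -0.32 under median centring.

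The largest negative differences were in genes of varied function. Apod encodes apolipoprotein D, a carrier of small lipids. Its levels were 4.91, 5.04 and 5.02 in untreated Q7 cells, 6.25, 6.47 and 6.02 in heat-shocked Q7 cells, 8.75, 7.96 and 8.91 in untreated Q111 cells and 6.33, 5.98 and 6.49 in heat-shocked Q111 cells. Untreated Q111 arrays were the highest, untreated Q7 arrays were in background range, and heat-shocked arrays of both lines overlapped between them. Apod rose in Q7 cells and fell in Q111 cells, with a difference of -3.53 (SE 0.34, adjusted p = 0.00137). Plekhg1 and Emc9, a subunit of the membrane protein insertion complex of the endoplasmic reticulum, also rose from background range in Q7 cells and fell in Q111 cells. Their differences were -3.02 (SE 0.48, adjusted p = 0.0068) and -3.15 (SE 0.48, adjusted p = 0.00625).

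Other genes of this size fell in Q111 cells with no passing change in Q7 cells. Zfp386, a zinc finger gene on chromosome 12, had levels of 8.81, 8.52 and 8.43 in untreated Q7 cells, 8.85, 8.40 and 8.84 in heat-shocked Q7 cells, 8.26, 8.77 and 8.63 in untreated Q111 cells and 5.35, 6.02 and 4.18 in heat-shocked Q111 cells. The 3 heat-shocked Q111 arrays were lower than all others, which overlapped, and replicate 3 was the lowest of them. The difference was -3.48 (SE 0.52, adjusted p = 0.00527). Its other probe set passed at -2.02 with another pattern, a response of 1.91 in Q7 cells and -0.11 in Q111 cells. Megf9 had levels of 9.0, 9.02 and 8.78 in untreated Q7 cells, 9.21, 9.01 and 8.87 in heat-shocked Q7 cells, 7.27, 7.48 and 7.73 in untreated Q111 cells and 4.91, 4.73 and 3.90 in heat-shocked Q111 cells. The heat-shocked Q111 arrays were all in background range, the untreated Q111 arrays lay below both Q7 groups, and the difference was -3.07 (SE 0.34, adjusted p = 0.00184). Notch3, a receptor of the Notch pathway, had levels of 7.08, 7.03 and 6.63 in untreated Q7 cells, 7.79, 7.08 and 7.53 in heat-shocked Q7 cells, 7.83, 7.69 and 7.11 in untreated Q111 cells and 5.75, 5.15 and 4.75 in heat-shocked Q111 cells. Heat-shocked Q111 arrays were again the lowest, and its probe sets gave -2.88 (SE 0.40, adjusted p = 0.00375) and -2.82, both passing. The differences were -3.24 (SE 0.42) for the homeobox gene Six5, -2.98 (SE 0.48) for Pik3ip1, an inhibitor of PI3 kinase, and -2.86 (SE 0.41) for Cnnm2, a membrane protein linked to magnesium transport, with other probe sets of Pik3ip1 and Cnnm2 not passing at -0.77 and -0.86.

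**Figure D5:**
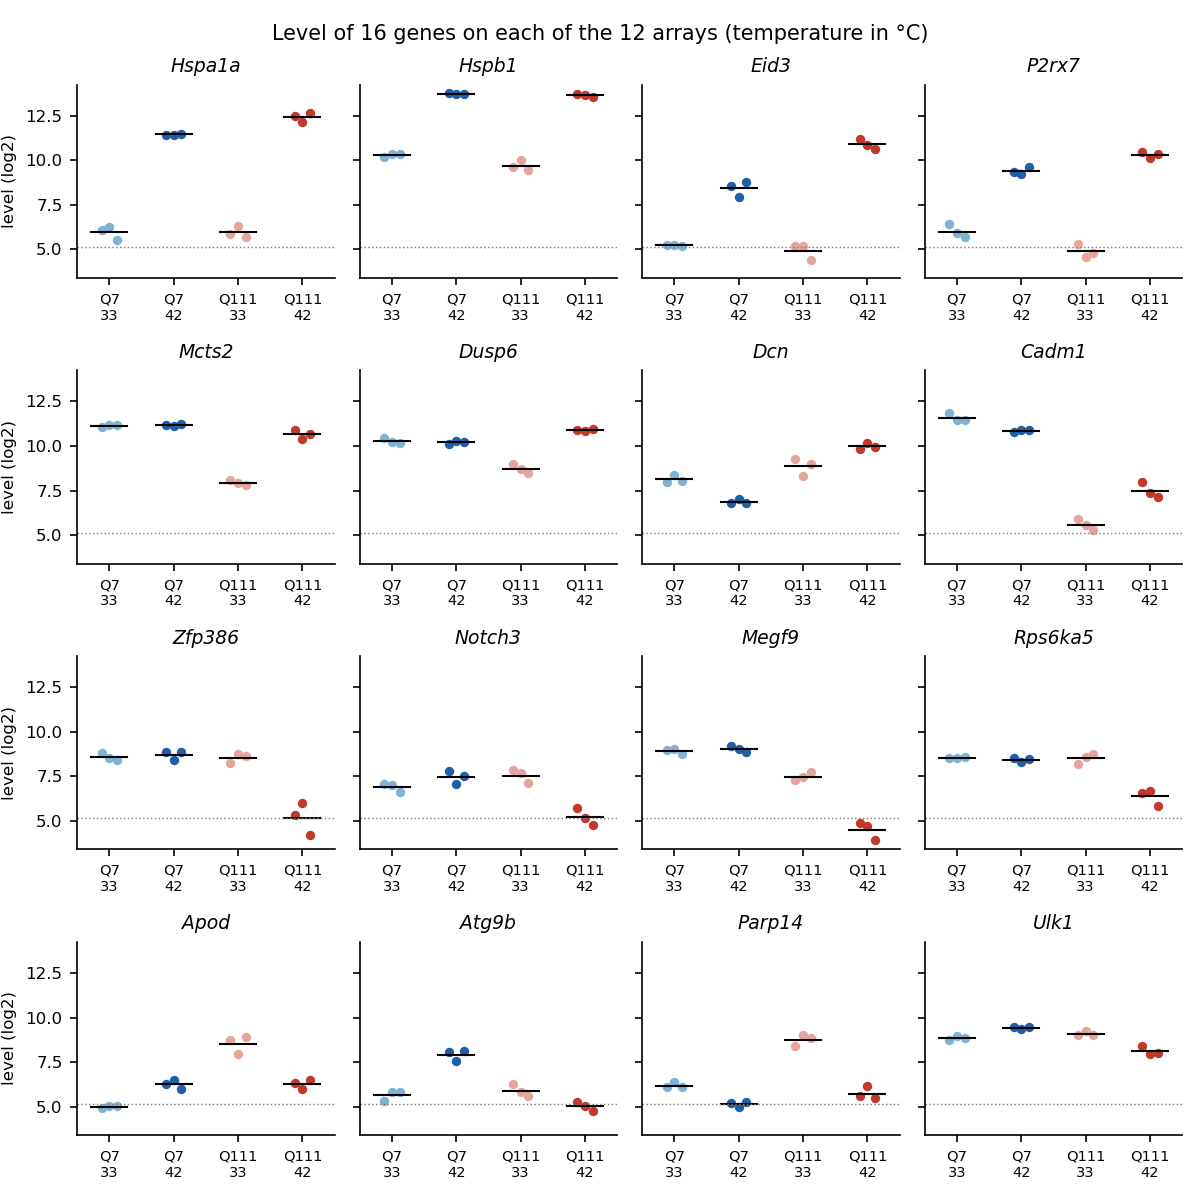
Log2 level of 16 genes on each array (points) with group means (bars), for Q7 and Q111 cells at 33 °C and after 6 h at 42 °C, with the bound of background range at 5.14 as a dotted line. Hspa1a and Hspb1 rise in both lines, Mcts2, Dusp6, Dcn and Cadm1 respond upward in Q111 cells, and Zfp386, Notch3, Megf9 and Rps6ka5 are lowest in heat-shocked Q111 cells.

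Probe sets of a gene often differed in their call, as 320 of the 372 called genes with other probe sets above background had at least 1 that did not pass. In 52 genes all passed in the same direction, in 293 all had the same sign, and in 0 did any pass in the opposite direction. Rps6ka5, the kinase MSK1 that phosphorylates histones after stress, had levels of 8.55, 8.50 and 8.60 in untreated Q7 cells, 8.54, 8.29 and 8.49 in heat-shocked Q7 cells, 8.21, 8.57 and 8.73 in untreated Q111 cells and 6.59, 6.68 and 5.85 in heat-shocked Q111 cells. The heat-shocked Q111 arrays lay below every other array, and its probe sets gave -2.02 (SE 0.30, adjusted p = 0.00563) and -2.20. Reep1, a gene of endoplasmic reticulum shape mutated in spastic paraplegia, fell in Q111 cells, with -2.34 (SE 0.44, adjusted p = 0.0138) and -2.12. Fam83h fell in both lines and more in Q111 cells on its brightest probe set, while the other gave 0.04 in Q7 cells and -1.90 in Q111 cells, with differences of -2.43 and -1.94. Iffo1 rose in Q7 cells by 1.49, with 0.46 on the other probe set, and had differences of -2.14 and -1.84. St8sia2, a sialyltransferase of neural cells, showed the contrary case, with -2.44 (SE 0.42, adjusted p = 0.00961) on its brightest probe set and 1.47, not passing, on another.

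A rise in Q7 cells that was absent or smaller in Q111 cells was seen for a further group. Atg9b, a membrane protein of autophagy, had levels of 5.34, 5.84 and 5.81 in untreated Q7 cells, 8.05, 7.58 and 8.11 in heat-shocked Q7 cells, 6.29, 5.80 and 5.58 in untreated Q111 cells and 5.27, 5.06 and 4.76 in heat-shocked Q111 cells. The heat-shocked Q7 arrays lay above every other array, the gene fell in Q111 cells, and the difference was -3.11 (SE 0.33, adjusted p = 0.00184). Ulk1, the kinase that starts autophagy, had levels of 8.74, 8.95 and 8.86 in untreated Q7 cells, 9.48, 9.34 and 9.45 in heat-shocked Q7 cells, 9.03, 9.24 and 9.02 in untreated Q111 cells and 8.39, 7.98 and 7.99 in heat-shocked Q111 cells. It rose in Q7 cells and fell in Q111 cells without overlap between groups of a line, with a difference of -1.55 (SE 0.20, adjusted p = 0.00316), although another probe set did not pass at -0.50. It was the only 1 of 22 autophagy and ubiquitin list members to pass, since Atg9b was not on that list, against 7.45% of all genes above background. Of the 22 members, 16 had a negative difference and 6 a positive one, while 62.5% of all genes above background were negative. At an unadjusted p under 0.05, 7 members were lower and 0 higher, while 3043 of all 11493 genes above background passed in either direction. Tmod4, which caps actin filaments in muscle, responded by 3.30 in Q7 cells and 0.65, not passing, in Q111 cells, a difference of -2.65 (SE 0.42, adjusted p = 0.00662). Fgfbp1, Hoxa10 and Niban3 rose by 2.23, 2.26 and 2.05 in Q7 cells and did not pass in Q111 cells. Bcl2l11, the death-promoting BCL2 relative BIM, rose in Q7 cells by 1.08 and had a difference of -1.45 (SE 0.32, adjusted p = 0.0264), with its other probe sets between -1.24 and -1.76.

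Of 18 SR splicing factors and CLK kinases, 2 had a lower response in Q111 cells, against 6.29% of all genes above background, and the list's median of -0.13 was near that of all genes (-0.16). Clk2, a kinase of splicing factors, fell in Q111 cells, did not pass in Q7 cells, and had a difference of -1.64 (SE 0.38, adjusted p = 0.0297). Srsf5, a splicing factor of the SR family, fell in both lines, by 0.60 in Q7 cells and 1.67 in Q111 cells, a difference of -1.07 (SE 0.26, adjusted p = 0.0354) that passed under 2 of 4 scalings. Syvn1, the ubiquitin ligase of endoplasmic reticulum degradation, rose in Q7 cells and fell in Q111 cells with a difference of -1.45 (SE 0.29, adjusted p = 0.0183). It was the only 1 of 25 genes of the list of endoplasmic reticulum chaperones and degradation to pass. Of the 25 genes, 20 had a negative difference and 5 a positive one, while 62.5% of all genes above background were negative. At an unadjusted p under 0.05, 5 were lower and 0 higher, while 3043 of all 11493 genes above background passed in either direction.

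The largest positive differences included genes that were lower in Q111 cells before heat shock. Mcts2 is a retrogene copy of Mcts1, so its signal may not be separate from that of its parent gene. Its levels were 11.04, 11.16 and 11.17 in untreated Q7 cells, 11.18, 11.13 and 11.26 in heat-shocked Q7 cells, 8.08, 7.93 and 7.80 in untreated Q111 cells and 10.89, 10.41 and 10.69 in heat-shocked Q111 cells. The untreated Q111 arrays were far below all others, and the remaining groups lay between 10.41 and 11.26. The response was 2.72 in Q111 cells and 0.07 in Q7 cells, a difference of 2.66 (SE 0.21, adjusted p = 0.000693). Cadm1, a cell adhesion molecule of synapses, had levels of 11.84, 11.48 and 11.45 in untreated Q7 cells, 10.77, 10.88 and 10.89 in heat-shocked Q7 cells, 5.89, 5.59 and 5.31 in untreated Q111 cells and 7.97, 7.36 and 7.11 in heat-shocked Q111 cells. It fell in Q7 cells and rose in Q111 cells while staying lower there, and the difference was 2.62 (SE 0.31, adjusted p = 0.00209), with 0.43 on another probe set above background. Parm1, Cap2 and Ppp1r9a, the last 2 of which encode actin regulators, also fell in Q7 cells and rose in Q111 cells, with differences of 2.68 (SE 0.30), 2.69 (SE 0.46) and 2.60 (SE 0.36).

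Some genes fell in Q7 cells with no passing change in Q111 cells. Kcnq5, a neuronal potassium channel, responded by -2.64 in Q7 cells and 0.19 in Q111 cells, the latter not passing, with a difference of 2.83 (SE 0.52, adjusted p = 0.0122). Pde1a, a calmodulin-dependent phosphodiesterase whose promoter is printed above, had levels of 7.99, 8.45 and 8.10 in untreated Q7 cells, 5.87, 6.01 and 6.04 in heat-shocked Q7 cells, 6.74, 6.62 and 6.97 in untreated Q111 cells and 6.67, 7.26 and 8.06 in heat-shocked Q111 cells. Untreated Q7 arrays were high and fell with heat by 2.21, and the Q111 groups overlapped, with a difference of 2.76 (SE 0.40, adjusted p = 0.0044). Mid1 behaved likewise (1.98, called in 4 of 12 fits without an array), and Adm and Sod2 did so with 0.85 and 0.97. Another Sod2 probe set of like brightness gave 0.93 in Q7 cells and 1.52 in Q111 cells, a difference of 0.60 that did not pass. Gsta4, a glutathione transferase of lipid peroxidation products, and Nsdhl, an enzyme of cholesterol synthesis, had differences of 1.21 (SE 0.31, adjusted p = 0.0442) and 1.06 (SE 0.24, adjusted p = 0.0291). Nsdhl fell in both lines and was the only 1 of 21 cholesterol genes to pass, while the list's median was 0.39 and stayed positive, at 0.30 to 0.77, under all 4 scalings. Fgf7, Slc9a9, Sprr1a and Il33 fell in both lines and more in Q7 cells, with differences of 1.76, 2.11, 1.90 and 1.70. The chemokine gene Ccl2 did the same, by 1.60 in Q7 cells and 0.49 in Q111 cells, a difference of 1.12 (SE 0.23, adjusted p = 0.0179).

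A few genes rose more strongly in Q111 cells. Eid3, a gene related to inhibitors of transcriptional coactivators, had levels of 5.26, 5.24 and 5.19 in untreated Q7 cells, 8.58, 7.97 and 8.76 in heat-shocked Q7 cells, 5.21, 5.17 and 4.43 in untreated Q111 cells and 11.22, 10.87 and 10.66 in heat-shocked Q111 cells. Heat-shocked Q111 arrays were the highest, and the untreated arrays of both lines were near background. The gene rose by 3.21 in Q7 cells and 5.97 in Q111 cells, a difference of 2.77 (SE 0.36, adjusted p = 0.003). P2rx7, the ATP-gated channel of inflammation, had levels of 6.43, 5.90 and 5.68 in untreated Q7 cells, 9.32, 9.22 and 9.63 in heat-shocked Q7 cells, 5.32, 4.56 and 4.77 in untreated Q111 cells and 10.49, 10.10 and 10.33 in heat-shocked Q111 cells. It rose in both lines from low levels, by 3.38 and 5.42, and its 2 probe sets above background gave 2.04 (SE 0.34, adjusted p = 0.00793) and 2.68. Mep1a and Ccdc73 rose in both lines with differences of 2.02 and 1.84. Gata3, a transcription factor, rose in Q111 cells with no passing change in Q7 cells, with 2.44 (SE 0.47, adjusted p = 0.0155). Ncald, a neuronal calcium sensor, rose in Q111 cells and did not pass in Q7 cells (2.32 (SE 0.41, adjusted p = 0.0109), with 2.01 on another probe set, where Q7 cells gave -1.62 and Q111 cells 0.39). Saa3, an acute-phase protein whose promoter is printed above, had levels of 5.38, 6.96 and 5.61 in untreated Q7 cells, 6.08, 5.26 and 5.74 in heat-shocked Q7 cells, 4.95, 5.65 and 5.10 in untreated Q111 cells and 7.80, 8.98 and 6.95 in heat-shocked Q111 cells. Of the Q7 arrays at 33 °C, 1 fell within the range of the heat-shocked Q111 arrays, and the difference of 2.97 (SE 0.72, adjusted p = 0.0365) passed in 4 of 12 fits without an array. Tagln, a smooth muscle actin-binding protein, and the inflammation inhibitor Tnfaip3 were also less stable, with 2.01 (adjusted p = 0.0411) and 1.45 (adjusted p = 0.0497).

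Of the genes named by rule or by name, 87 were called, and 55 of them kept their direction and call under all 4 scalings and without each array in turn. Genes whose symbol is Zfp and a number, mostly zinc finger genes, were looked at after their values had been seen. Of 278 above background in both lines, 54 had a lower response in Q111 cells (19.4%) and 1 a higher one, against 6.29% and 1.16% of all genes above background. Their median response was 0.05 in Q7 cells and -0.73 in Q111 cells, and their median difference was -0.78, with -0.40 under median centring, where 39 were lower and 4 higher. With the actin covariate 17 were lower and 0 higher. Without 1 array in turn 14 to 85 were lower, the fewest without replicate 3 (14) and replicate 1 (24) of heat-shocked Q7 cells, and 27 without replicate 3 of untreated Q7 or replicate 2 of untreated Q111 cells.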

How the data were processed

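The 12 arrays were deposited as log2 expression levels per probe set, which the authors made with RMA, per the submitters' processing notes. RMA's version was not given in the sources used here. Of 45101 probe sets, 34945 name 1 gene, and the brightest of each gene stood for it, giving 18193 genes (9010 had several probe sets). A linear model of the 4 groups was fitted to all 12 arrays with limma 3.58.1 in R 4.3.3 (8 residual degrees of freedom), with no replicate block, and p-values were adjusted by Benjamini-Hochberg over all genes. The script was tested on simulated data. The number of arrays limits the precision.

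Genes named were the largest differences overall and in each kind of response (predicted genes left out), genes with concordant probe sets, up to 3 called members of each of 41 gene lists, and a few genes by name, 1 of them not analysed here. Some others were added after their values were seen. The members and lists were chosen with earlier results of these data known. Alternatives covered scaling, probe sets, filters, variance models, array weights, an RNA integrity covariate, thresholds and leaving out each array. Promoters were read from RefSeq's table. Replicate numbers were not taken as pairs, and the fit with them as a block is given below. In deviations from group means, 10 of 18 same-numbered pairs of arrays correlated above 0.1, against 12 of 36 differently numbered pairs. The median correlations were 0.16 and -0.08.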

Additional observations from a re-analysis of the deposited data

Results flagged for a closer look

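The heat responses of the lines differed, by the test of the difference itself, for 856 genes above background in both lines. Values below are the response of Q111 cells minus that of Q7 cells (log2) for the 87 named genes among them.

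Higher responses in Q111 cells, from the largest, were those of Saa3 (2.97), Kcnq5 (2.83), Mmp3 (2.79), Eid3 (2.77), Pde1a (2.76), Cap2 (2.69), Parm1 (2.68), Mcts2 (2.66), Cadm1 (2.62), Ppp1r9a (2.60), Gata3 (2.44), Dcn (2.35), Ncald (2.32), Dusp6 (2.22) and Slc9a9 (2.11). Next came P2rx7 (2.04), Mep1a (2.02), Tagln (2.01), Mid1 (1.98), Sprr1a (1.90), Ccdc73 (1.84), Fgf7 (1.76), Maff (1.71), Il33 (1.70), Phlda1 (1.62), Tnfaip3 (1.45), Myc (1.43), Klf4 (1.22), Gsta4 (1.21) and Ccl2 (1.12). Then followed Nsdhl (1.06), Sod2 (0.97), Adm (0.85) and Ier3 (0.74).

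Lower responses in Q111 cells, from the largest, were those of Apod (-3.53), Zfp386 (-3.48), Six5 (-3.24), Emc9 (-3.15), Atg9b (-3.11), Megf9 (-3.07), Plekhg1 (-3.02), Pik3ip1 (-2.98), Notch3 (-2.88), Cnnm2 (-2.86), Mmp11 (-2.82), Emilin1 (-2.66), Tmod4 (-2.65), Fgfbp1 (-2.60) and Hoxa10 (-2.51). Next came Tap1 (-2.48), Adamts4 (-2.47), Niban3 (-2.46), St8sia2 (-2.44), Fam83h (-2.43), Reep1 (-2.34), Dnajb5 (-2.33), Spred2 (-2.27), Iffo1 (-2.14), Acan (-2.10), Ptpn14 (-2.07), Dhx58 (-2.06), Rps6ka5 (-2.02), Smad3 (-1.99) and Nlrc5 (-1.98). Then followed Mmp23 (-1.98), Parp14 (-1.97), Tm6sf2 (-1.94), Stat2 (-1.93), Psors1c2 (-1.85), Tgfb3 (-1.79), Col1a2 (-1.73), Clk2 (-1.64), Nr1d1 (-1.62), Igll1 (-1.62), Ulk1 (-1.55), Sp1 (-1.48), Bcl2l11 (-1.45), Syvn1 (-1.45) and Dnajb2 (-1.38). Then followed Trafd1 (-1.29), Tef (-1.20), Srsf5 (-1.07), Pxn (-0.99), Osgin1 (-0.99), Ajuba (-0.96), Cxcl1 (-0.81) and Ahsa2 (-0.77).

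Of these 87 genes, 55 kept their direction and call under all 4 scalings and without each array in turn. No explanation was tested for any of them.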

How the results depend on the processing

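Of the genes above background in both lines, 856 were called as deposited, 133 higher and 723 lower. Array weights gave 2622 (701 higher, 1921 lower), though that fit did not reach its tolerance. The actin covariate gave 311 (44 and 267), and an adjusted p under 0.01 gave 163 (29 and 134). Median centring gave 522 higher and 404 lower. Leaving out 1 array in turn gave 279 to 1044 genes, 51 to 250 higher and 228 to 932 lower, with the lowest total without replicate 3 of heat-shocked Q7 cells and the highest without replicate 1 of heat-shocked Q111 cells. The cause of these shifts was not tested. Of the other alternatives, averaging probe sets gave 611 genes, testing only genes above background 1092, and requiring a 2-fold difference 744. With the replicate number as a block 921 genes were called, 754 of them among the 856. Correlations of same-numbered arrays' deviations from group means ranged from -0.50 to 0.58. Between the untreated lines they were 0.40 to 0.58 for the same number and negative for different numbers. Deviations sum to 0 within a group, so the negative values are no separate result. Heat-shocked arrays of replicates 1, 2 and 3 correlated at 0.35, -0.50 and -0.32 across lines. Whether same-numbered arrays shared a factor was not tested. The block ended the calls of Mid1, Osgin1, Tagln, Sod2, Adm, Cxcl1 and Tnfaip3. None of the 87 called named genes changed direction under the alternatives that gave it a gene-level value, while single other probe sets above background gave St8sia2 1.47, Ptpn14 0.02, Stat2 0.01 and Dnajb5 0.00. Levels in background range limit 173 of the 856 differences.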
